A study of Bos indicus with 5 samples.

Results

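Heat shock proteins and folding chaperones bind newly made or unfolded proteins and help them reach or regain their shape. The 95 genes of this machinery described here were taken from the 24616 genes measured in the bovine ampulla. A gene was included when its symbol belonged to the HSP70 and HSP110, HSP90, small heat shock protein, HSP60 and HSP10, J protein (DNAJA, DNAJB, DNAJC), CCT chaperonin, heat shock factor, BAG or protein disulfide isomerase families, or was P4HB, CALR, CANX, STIP1 or CRYAB. HSPB11 was left out. Of the 95 genes, 91 passed the filter on low values, which was a mean above 5 normalized reads, and 15815 of all genes did so.

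The ampulla is the wide part of the oviduct next to the ovary, where fertilization takes place. The full thickness of its wall was sampled on day 4 after induced ovulation, on the side of the corpus luteum (CL), in multiparous Nelore (Bos indicus) cows. LF/LCL cows (2 cows), treated so as to have a large follicle and then a large CL, had their intravaginal device, which releases progesterone, taken out 42 h ahead of the GnRH agonist injection that induced ovulation. They had also been given a prostaglandin F2 alpha analog when the device was inserted. SF/SCL cows (3 cows), treated so as to have a small follicle and a small CL, had it taken out 30 h ahead, and no prostaglandin was given to them at insertion. Cows of both groups had been presynchronized with the prostaglandin analog and the GnRH agonist, received estradiol benzoate at device insertion, and received the prostaglandin analog at device removal and again some hours later. The cows sequenced were the top-ranked of the LF/LCL and the bottom-ranked of the SF/SCL animals for ovarian and hormone measurements, and a further LF/LCL library was set aside by the study for low yield, so the groups are extremes and not random draws. Tracts were carried on ice before dissection.

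HSP70 proteins hold exposed stretches of a client protein and let go of it in a cycle driven by ATP. J proteins deliver clients and start the cycle, HSP110 and BAG proteins end it by exchanging the nucleotide, and HSP90 completes the folding of many signalling proteins, steroid receptors included. Small heat shock proteins keep unfolded proteins from clumping, CCT folds actin and tubulin in a closed chamber, and the lumen of the endoplasmic reticulum (ER) has its own set for secreted proteins. In the oviduct, epithelial cells secrete heat shock proteins into the fluid, and HSP70 family members there are known to bind sperm.

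Each library held 13418278 to 19592174 counted reads, and values below are normalized reads, which are read counts divided by a size factor per library. They are given in the order LF/LCL replicates 1 and 2, then SF/SCL replicates 1, 2 and 3. Levels were not compared between genes, since no gene lengths were used. OVGP1, the oviduct glycoprotein of secretory cells, had 142113 and 117179 in LF/LCL against 122187, 147247 and 137422 in SF/SCL. It was read as a sign of oviduct tissue. It cannot tell the ampulla from other parts of the oviduct, which were not compared here. RNA levels of cell type markers differed between the groups. All 11 smooth muscle markers tested were higher in LF/LCL (median log2 fold change 1.47, 9 with an unadjusted limma p under 0.05), and their summed level was 126702 and 65504 in LF/LCL against 40882, 43586 and 17523 in SF/SCL. Of 20 ciliated cell markers, 19 were lower in LF/LCL (median -0.40, 14 with a p under 0.05), with sums of 84930 and 104932 against 124791, 130303 and 120355. In bulk tissue, fewer cells of a type and less RNA per cell cannot be told apart. The parts that these shifts play in the chaperone values were not tested. Where a member is set against a marker sum below, the ratio is a description only.

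Across the whole set, more chaperone genes were higher in SF/SCL than in LF/LCL. The log2 fold change, LF/LCL over SF/SCL on the log2(value + 1) scale, was below 0 in 55 of the 91 genes tested, or 60.4%, against 49.2% of all genes tested. Its median was -0.09, against 0.01 over all genes. No chaperone gene had an adjusted p under 0.05 in limma with Benjamini-Hochberg adjustment, as was the case for every gene tested (0%), and edgeR with its quasi-likelihood test, fitted to whole reads recovered from the values, also called none (0%). Without adjustment, 12 of the 91 had a limma p under 0.05 (13.2%), close to the 11.5% of all genes. By direction, 10 of the 12 were higher in SF/SCL (11%, against 5.86% of all genes) and 2 in LF/LCL (2.2%, against 5.64%).

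The raw separation of the libraries had the same tilt, but it rests on the same values and is not separate evidence. In 33 of the 91 genes the groups did not overlap (36.3%, against 30.1% of all genes). In 23 of them every SF/SCL library was above both LF/LCL libraries (25.3%, against 15.1%), and in 10 the reverse held (11%, against 15%). DESeq2 on the recovered reads called 6 chaperone genes at an adjusted p under 0.05, or 6.59%, against 2.89% of all genes. These were HSPA1A, HSPH1, HSPA6 and DNAJB13, higher in SF/SCL, and BAG2 and HSPA12A, higher in LF/LCL. Without adjustment, 13 chaperone genes had a p under 0.05 by edgeR (14.3%, against 11.6% of all genes) and 14 by DESeq2 (15.4%, against 12.7%), both close to the share of all genes.

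**Figure D1:**
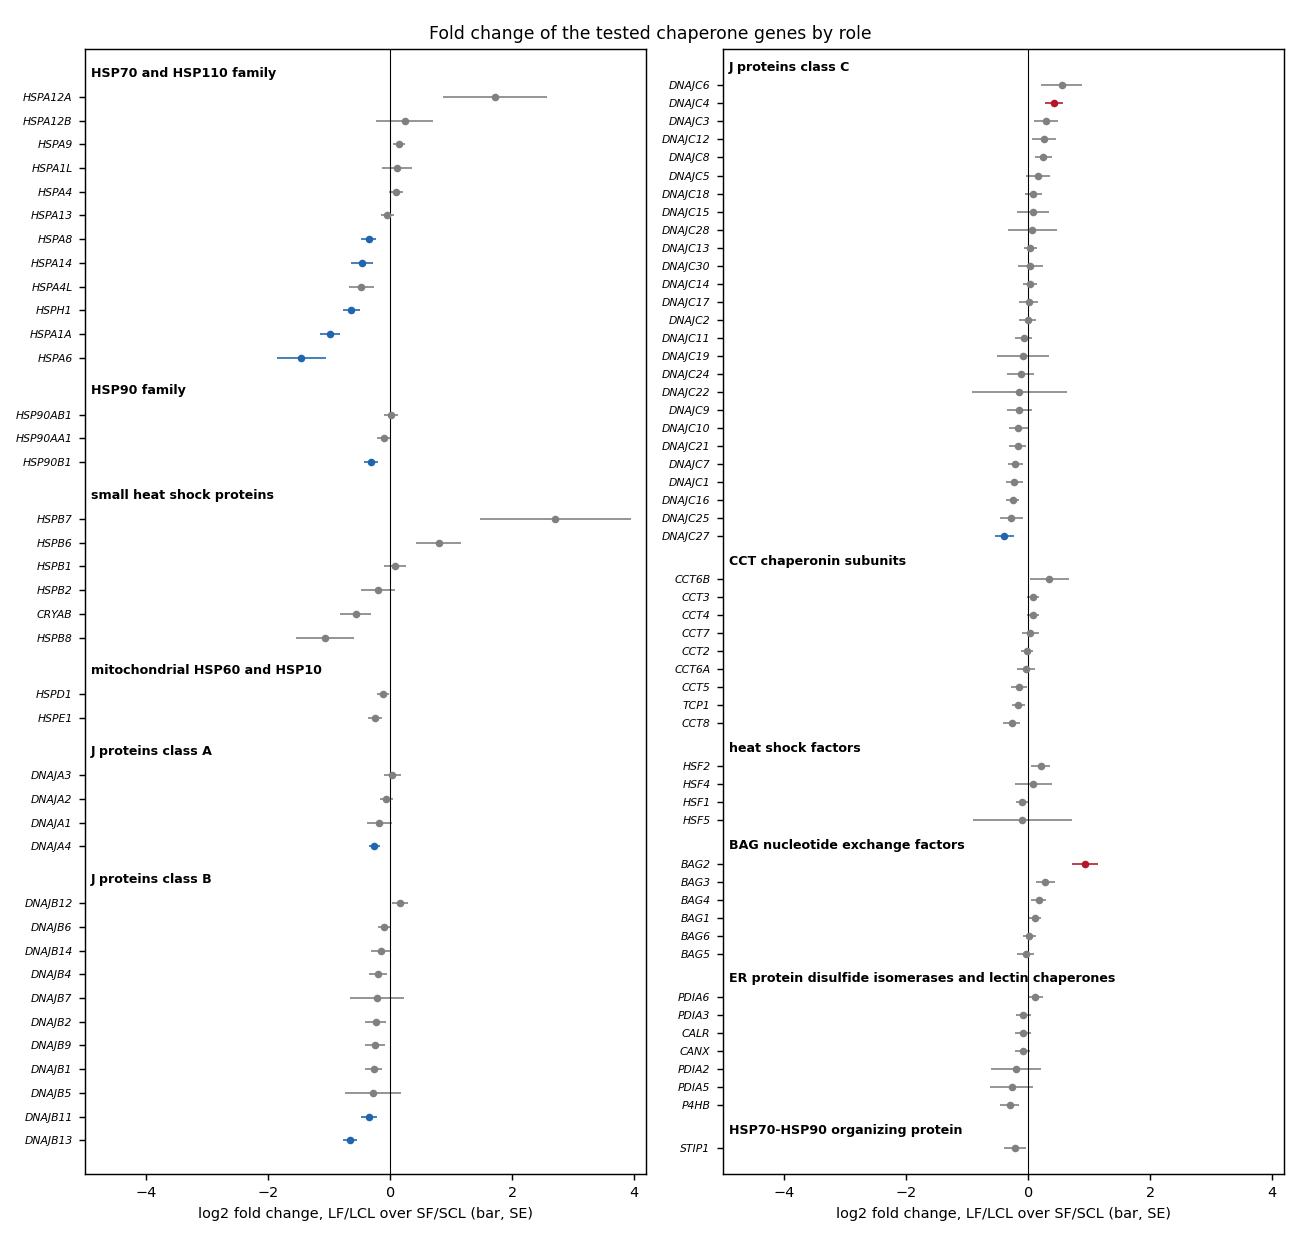
Log2 fold change (LF/LCL over SF/SCL, horizontal axis) with its SE from limma for the 91 chaperone genes tested, grouped by role. Blue points are the 10 genes with an unadjusted p under 0.05 that were higher in SF/SCL, red points the 2 that were higher in LF/LCL, and grey points the rest; HSPA12A and HSPB7 have the highest values, each with a wide SE.

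The heat-inducible HSP70, HSPA1A, had the smallest limma p of the 91 genes and was higher in SF/SCL. HSPA1A (ENSBTAG00000025441) had 12075 and 13198 normalized reads in the LF/LCL libraries and 24136, 21689.8 and 30245 in the SF/SCL libraries. All 3 SF/SCL samples were well above both LF/LCL samples, and the LF/LCL pair lay close together. The group means were 12636 ± 794 and 25357 ± 4406 (SD), a 1.99-fold higher abundance in SF/SCL (log2 fold change -0.99 ± 0.16, SE; limma adjusted p = 0.183; DESeq2 adjusted p = 3.13e-05; edgeR adjusted p = 0.222). With any 1 library left out, its log2 fold change stayed between -1.10 and -0.86, and the unadjusted limma p stayed under 0.05. HSPA1A took 0.0767% and 0.0843% of all counted reads in LF/LCL against 0.157%, 0.142% and 0.197% in SF/SCL. The study also measured HSPA1A in the ampulla by qPCR in a larger set of cows. There HSPA1A was again higher in SF/SCL, but the difference was smaller and not significant. Near-identical copies of this gene lie beside each other in mammalian genomes and only uniquely mapped reads were counted, so its level is uncertain where reads fit more than 1 copy.

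HSPA1A was also set against other genes of the same library. The ratio of HSPA1A to HSPA8, its constitutive relative, was 0.480 and 0.491 in LF/LCL against 0.749, 0.699 and 0.825 in SF/SCL. The ratio of HSPA1A to HSP90AA1 was 0.353 and 0.340 in LF/LCL against 0.584, 0.578 and 0.786 in SF/SCL. Both ratios separated the groups without overlap, as HSPA1A itself did, and they rest on the same HSPA1A reads. Per 1000 reads of the summed ciliated cell markers, HSPA1A had 142 and 126 reads in LF/LCL against 193, 166 and 251 in SF/SCL. The groups remained apart on that scale, but the marker sum differed less between them than HSPA1A did. The cells that express HSPA1A are not known from these data, and the part of cell make-up in its values was not tested.

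HSPA6, a strictly stress-inducible HSP70, had the same direction. Its values were 48.1 and 84.2 in LF/LCL against 163, 128 and 263 in SF/SCL, again with no overlap. SF/SCL replicate 3 was the highest and the log2 fold change was -1.46 ± 0.40 (limma adjusted p = 0.312; DESeq2 adjusted p = 0.0472). HSPA8, the constitutive cytosolic HSP70, had 25182 and 26885 in LF/LCL against 32245, 31010.4 and 36684 in SF/SCL. Its SF/SCL values were all higher, but by only 1.28-fold on average (log2 fold change -0.35 ± 0.12, limma adjusted p = 0.371). HSPA14, a ribosome-associated HSP70 relative, had 403 and 457 in LF/LCL against 611, 489.6 and 688 in SF/SCL. The groups were separated narrowly, and the log2 fold change was -0.46 ± 0.18 (limma adjusted p = 0.416).

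HSP110 proteins are the exchange factors that reload HSP70 with ATP. HSPH1 (ENSBTAG00000005012), the heat-inducible HSP110, had 4828 and 6021 in LF/LCL against 8340.4, 7769 and 9109 in SF/SCL. Every SF/SCL sample exceeded both LF/LCL samples, with group means of 5425 ± 844 and 8406 ± 672 (SD) (log2 fold change -0.64 ± 0.14, limma adjusted p = 0.248; DESeq2 adjusted p = 0.00964). Per 1000 reads of the summed ciliated cell markers, which were also higher in SF/SCL, HSPH1 had 56.9 and 57.4 reads in LF/LCL against 66.8, 59.6 and 75.7 in SF/SCL. On that scale the groups stayed apart only narrowly, with SF/SCL replicate 2 just above LF/LCL. HSPA4, the constitutive HSP110, had 6619 and 7679.5 in LF/LCL against 6914, 6242 and 6894 in SF/SCL, and the groups overlapped (log2 fold change 0.09 ± 0.12). The ratio of HSPH1 to HSPA4 was therefore 0.729 and 0.784 in LF/LCL against 1.21, 1.25 and 1.32 in SF/SCL. HSPA4L, a further HSP110, had 646 and 1033 in LF/LCL against 1160.3, 1114 and 1124 in SF/SCL, so that LF/LCL replicate 1 alone was far from the rest (log2 fold change -0.47 ± 0.20, limma adjusted p = 0.453). Without LF/LCL replicate 1 the log2 fold change of HSPA4L was -0.13.

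The remaining HSP70 relatives lay close to 0 or on the LF/LCL side. HSPA9, the mitochondrial HSP70, had 3327 and 3469 in LF/LCL against 2981, 3253 and 3019.9 in SF/SCL, slightly higher in LF/LCL without overlap (log2 fold change 0.14 ± 0.10, limma adjusted p = 0.634). HSPA13, an ER-associated HSP70 relative, HSPA1L, whose product is mainly known from testis, and HSPA12B, a relative known from endothelium, had log2 fold changes from -0.04 to 0.24, with groups that overlapped. HSPA12A was decided by 1 library. It had 96.2 and 824 in LF/LCL against 98.8, 75.4 and 82.6 in SF/SCL, and only LF/LCL replicate 2 was high. Its log2 fold change was 1.72 ± 0.86 (limma adjusted p = 0.51; DESeq2 adjusted p = 0.0368), and 0.18 without LF/LCL replicate 2. In all, 5 of the 12 HSP70 and HSP110 genes had a limma p under 0.05 (41.7%, against 11.5% of all genes), all higher in SF/SCL, and the family median was -0.20.

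**Figure D2:**
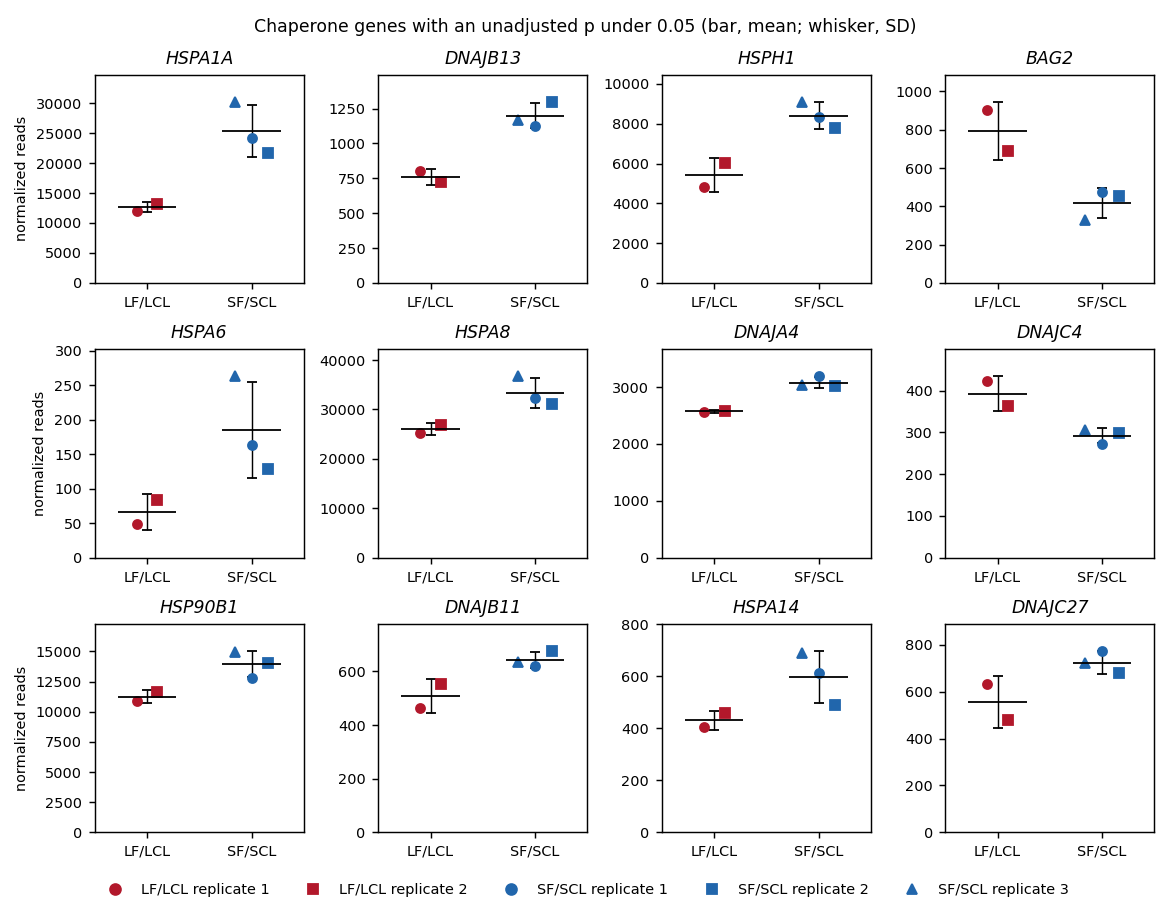
Normalized reads in each library (points; LF/LCL red, SF/SCL blue) with the group mean (bar) and SD (whisker) for the 12 chaperone genes with an unadjusted limma p under 0.05, in order of p; every vertical axis starts at 0. HSPA1A is at 12075 and 13198 in LF/LCL and between 21690 and 30245 in SF/SCL, and BAG2 and DNAJC4 are the 2 genes with higher LF/LCL values.

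J proteins, which bring clients to HSP70, are sorted into 3 classes by the domains they carry. The 4 class A genes, general cytosolic and mitochondrial partners, had log2 fold changes from -0.26 to 0.03. DNAJA4 had 2557 and 2586 in LF/LCL against 3188, 3020.1 and 3035 in SF/SCL, and the replicates of each group lay close together (log2 fold change -0.26 ± 0.09, limma adjusted p = 0.378). DNAJA1, a main cytosolic partner of HSP70, had 899.5 and 1311 in LF/LCL against 1190.4, 1083 and 1437 in SF/SCL. Its groups overlapped, and the sign of its log2 fold change (-0.18 ± 0.20) turned to 0.09 without LF/LCL replicate 1. DNAJA3, the mitochondrial member, was close to 0 (0.03 ± 0.13), and its sign turned when SF/SCL replicate 1 was left out or when libraries were scaled to their totals.

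Class B leaned to the SF/SCL side. Of its 11 genes tested, 10 had log2 fold changes below 0 (90.9%, against 49.2% of all genes), with a median of -0.24. DNAJB1, the heat-inducible partner of HSPA1A and HSPA8, had 2532 and 2901 in LF/LCL against 3023, 3103 and 3729 in SF/SCL. Every SF/SCL sample was higher, yet the difference was small (log2 fold change -0.27 ± 0.13, limma adjusted p = 0.499). DNAJB12, a J protein anchored in the ER membrane, was the 1 gene on the other side (0.16 ± 0.13).

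DNAJB13 is a J protein built into the radial spokes of motile cilia and sperm tails. DNAJB13 (ENSBTAG00000003682) had 802 and 721 in LF/LCL against 1127, 1299 and 1171 in SF/SCL. The groups were far apart relative to their spread, with means of 762 ± 57.3 (SD) and 1199 ± 89.6 (log2 fold change -0.65 ± 0.12, limma adjusted p = 0.203; DESeq2 adjusted p = 0.00252). Set against the summed ciliated cell markers, DNAJB13 had 9.45 and 6.87 reads per 1000 marker reads in LF/LCL against 9.03, 9.97 and 9.73 in SF/SCL. On that scale the groups overlapped. Its ratio to RSPH1, a radial spoke gene chosen after values were seen, was 0.467 and 0.369 in LF/LCL against 0.341, 0.417 and 0.450 in SF/SCL, again with overlap.

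DNAJC proteins are a mixed class, each tied to a single task such as clathrin uncoating, splicing or mitochondrial import. The 26 genes tested were split evenly, with 13 log2 fold changes on either side of 0 and a median of -0.002. DNAJC27, a small GTPase with a J domain, had 634 and 479 in LF/LCL against 772, 678 and 721 in SF/SCL (log2 fold change -0.39 ± 0.16, limma adjusted p = 0.424), and the value was -0.19 without LF/LCL replicate 2 and -0.59 without LF/LCL replicate 1. DNAJC4 had 422 and 364 in LF/LCL against 272, 298 and 307 in SF/SCL, higher in both LF/LCL samples (log2 fold change 0.42 ± 0.15, limma adjusted p = 0.383). DNAJC6, the neuronal auxilin that uncoats clathrin, had a log2 fold change of 0.55 ± 0.34 (limma adjusted p = 0.588), on values of only 52.8 and 57.1 for LF/LCL and 31.2, 40.4 and 40.8 for SF/SCL.

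BAG proteins release clients from HSP70 and steer them to degradation or refolding. Of the 6 genes, 5 had log2 fold changes above 0, against 8032 of all 15815 genes tested, and the BAG median was 0.14. In 4 of them both LF/LCL libraries were above every SF/SCL library (66.7%, against 15% of all genes), but BAG2 alone had a limma p under 0.05. BAG2 (ENSBTAG00000005355), which blocks the ubiquitin ligase that works with HSP70, had 902 and 687 in LF/LCL against 473, 455 and 326 in SF/SCL. Both LF/LCL samples exceeded every SF/SCL sample, with means of 795 ± 152 (SD) and 418 ± 80.0, a 1.91-fold higher abundance in LF/LCL (log2 fold change 0.93 ± 0.21, limma adjusted p = 0.266; DESeq2 adjusted p = 0.0166). Per 1000 reads of the summed smooth muscle markers, BAG2 had 7.12 and 10.5 reads in LF/LCL against 11.6, 10.4 and 18.6 in SF/SCL. That sum itself was 126702 and 65504 in LF/LCL against 40882, 43586 and 17523 in SF/SCL, a larger difference than that of BAG2. Any gene raised less than the sum is not higher in LF/LCL on that scale, whichever cells express it. The part of muscle content in the BAG2 values was not tested.

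BAG3, the stress-inducible BAG that acts with HSPB8 in selective autophagy, had 1617 and 1789.7 in LF/LCL against 1435, 1183 and 1607 in SF/SCL. The gap between the groups was narrow (log2 fold change 0.28 ± 0.15, limma adjusted p = 0.533), and its direction was opposite to that of HSPA1A. BAG1 had 1071 and 1078 against 1021, 969 and 987, and BAG4 428 and 439 against 397, 374 and 385, both with very tight replicates and differences under 0.2 on the log2 scale. BAG6, which guards membrane proteins in the cytosol, was close to 0 (0.02 ± 0.11), and so was BAG5 (-0.04 ± 0.13), whose sign turned without LF/LCL replicate 2 or SF/SCL replicate 3.

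The HSP90 genes work in the cytosol and in the ER. HSP90AA1, the inducible cytosolic form, had 34251 and 38795 in LF/LCL against 41309, 37525 and 38487 in SF/SCL. The groups overlapped, and the log2 fold change was -0.10 ± 0.12 (95% confidence interval -0.38 to 0.18; limma adjusted p = 0.797). HSP90AB1, the constitutive cytosolic form, had 15983 and 15119 in LF/LCL against 15114, 16722 and 14295 in SF/SCL, with an interval of -0.26 to 0.30 and a sign that changed under other scaling. HSP90B1, the ER form also called GRP94, had 10876 and 11631 in LF/LCL against 12829, 14071 and 14947 in SF/SCL. All SF/SCL samples were higher (log2 fold change -0.31 ± 0.11, limma adjusted p = 0.395).

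STIP1, the adaptor that hands clients from HSP70 to HSP90, had 657 and 965 in LF/LCL against 907, 874 and 996 in SF/SCL. LF/LCL replicate 1 was low and the other LF/LCL sample lay among the SF/SCL values, so the log2 fold change (-0.21 ± 0.18, limma adjusted p = 0.707) went to 0.06 without LF/LCL replicate 1 and to -0.49 without LF/LCL replicate 2.

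None of the 6 small heat shock proteins tested had a limma p under 0.05. HSPB7 and HSPB8 were among the 3 members with the widest spread in SF/SCL (SD of 2.20 and 0.84 on the log2 scale). HSPB8, the partner of BAG3, had 3127 and 2228 in LF/LCL against 2861, 7181 and 8357 in SF/SCL. SF/SCL replicates 2 and 3 were high while replicate 1 lay between the LF/LCL values (log2 fold change -1.07 ± 0.48, limma adjusted p = 0.47). CRYAB, the alpha-crystallin B chain of muscle and lens, had 541 and 380.4 in LF/LCL against 653, 536 and 869 in SF/SCL, nearly separated but for LF/LCL replicate 1 and SF/SCL replicate 2 (-0.57 ± 0.25, limma adjusted p = 0.463).

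HSPB1, the general small heat shock protein HSP27, had 8200.0 and 6643 in LF/LCL against 7503, 5655 and 7952 in SF/SCL. These fully overlapped (log2 fold change 0.08 ± 0.18, 95% confidence interval -0.36 to 0.53), and the sign turned without LF/LCL replicate 1 or SF/SCL replicate 2. HSPB6, the small heat shock protein HSP20 of smooth muscle, had 2929.6 and 1481 in LF/LCL against 836, 1508 and 1377 in SF/SCL (0.79 ± 0.37, limma adjusted p = 0.487). That value was carried by LF/LCL replicate 1, since it was 0.30 without that library and 1.29 without LF/LCL replicate 2. Per 1000 reads of the summed smooth muscle markers, HSPB6 had 23.1 and 22.6 reads in LF/LCL against 20.4, 34.6 and 78.6 in SF/SCL. The marker sum differed more between the groups than HSPB6 did, so a ratio that is not higher in LF/LCL follows from the sum.

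HSPB7, the cardiovascular small heat shock protein, was sparse. It had 64.5 and 58.1 in LF/LCL against 42.6, 8.55 and 1.07 in SF/SCL, the last of which rested on 1 read. The groups did not overlap (log2 fold change 2.71 ± 1.24, limma adjusted p = 0.477). The value rested on single libraries, falling to 1.61 when SF/SCL replicate 3 was left out and going up to 3.81 when replicate 1 of that group was, and edgeR and DESeq2 both gave 1.82. Per 1000 reads of the summed smooth muscle markers, HSPB7 had 0.509 and 0.887 reads in LF/LCL against 1.04, 0.196 and 0.0612 in SF/SCL. On that scale the groups overlapped. HSPB2, the partner of muscle kinases that lies next to CRYAB in the RefSeq gene order, had 137 and 97.8 in LF/LCL against 163, 124 and 118 in SF/SCL, with overlap.

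**Figure D3:**
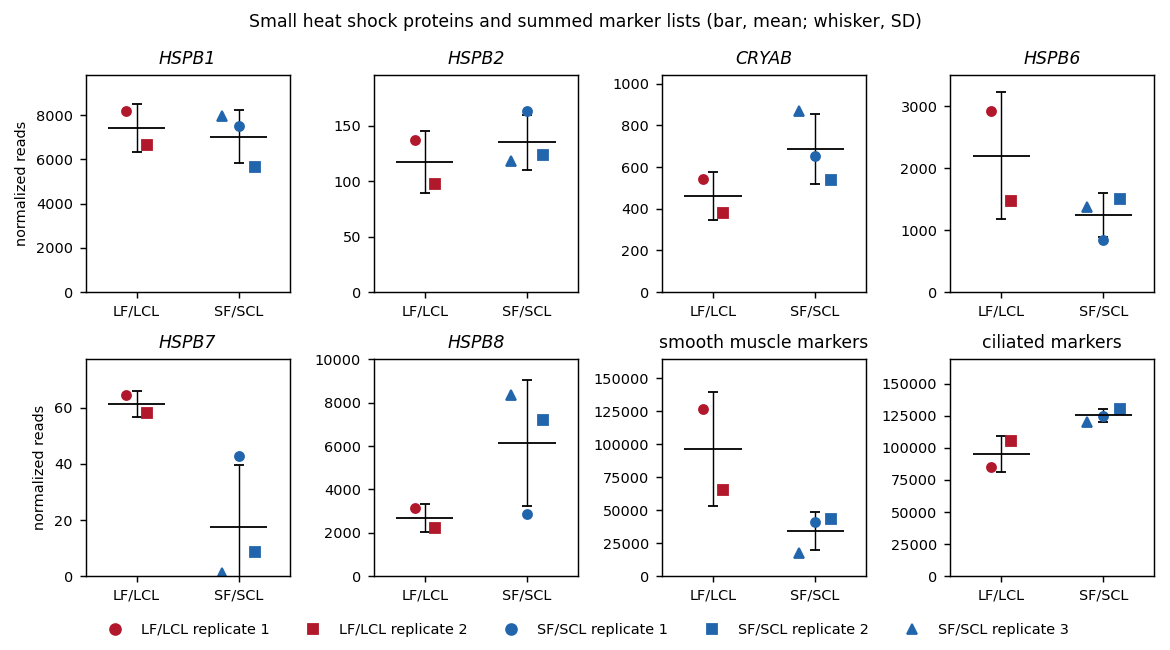
Normalized reads in each library for the 6 small heat shock proteins tested and, in the last 2 panels, the summed smooth muscle and ciliated cell markers; bars are group means, whiskers SD (cut at 0 for HSPB7), and each vertical axis starts at 0. HSPB8 was high in SF/SCL replicates 2 and 3, while HSPB6 and the smooth muscle sum were both highest in LF/LCL replicate 1.

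Mitochondrial HSP60 and its lid HSP10, which together form a folding chamber, both lay on the SF/SCL side. HSPD1 (HSP60) had 1359 and 1350.3 in LF/LCL against 1581, 1386 and 1453 in SF/SCL (log2 fold change -0.12 ± 0.10, limma adjusted p = 0.714). HSPE1 (HSP10) had 977 and 1061 in LF/LCL against 1298, 1114 and 1225 in SF/SCL (-0.25 ± 0.11, limma adjusted p = 0.474). Neither pair of groups overlapped, and both differences were small.

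The CCT chaperonin had a median absolute log2 fold change of 0.08, the smallest of the role groups. None of the 9 subunit genes had a limma p under 0.05, and their median was -0.02. An absolute log2 fold change under 0.25 was found in 7 of the 9, against 8917 of all 15815 genes tested. CCT2 had 3170.0 and 3207 in LF/LCL against 3278, 3393 and 3047 in SF/SCL, with a 95% confidence interval of -0.26 to 0.22 for the log2 fold change. CCT8 was the lowest of the class (443 and 523 in LF/LCL, 584, 553 and 608 in SF/SCL; -0.27 ± 0.13, limma adjusted p = 0.493), and CCT6B, the testis-type subunit, the highest (0.34 ± 0.32), from only 80.9 and 83.2 normalized reads in LF/LCL against 56.1, 85.5 and 55.8 in SF/SCL.

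In the ER set, SF/SCL replicate 3 often had the highest value. Calreticulin (CALR) and calnexin (CANX), which hold sugar-bearing proteins during folding, and the disulfide isomerases PDIA3 and PDIA6 had log2 fold changes from -0.09 to 0.12, none with a p under 0.05. P4HB, the main disulfide isomerase, had 9652 and 10876 in LF/LCL against 11829.6, 11207 and 15288 in SF/SCL. SF/SCL replicate 3 exceeded the rest, and the log2 fold change went from -0.30 ± 0.16 (limma adjusted p = 0.531) to -0.17 without that library. PDIA5 had 386 and 442 in LF/LCL against 426, 357 and 817 in SF/SCL, where again only replicate 3 was high. SF/SCL replicate 3 had the highest value in 6 of the 7 isomerase and lectin genes, against 30 of all 91 chaperone genes, and LF/LCL replicate 1 was the lowest in 31 of the 91. How often each library was the highest or lowest over all genes tested was not counted. The pattern is therefore not shown to be particular to folding genes.

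The J proteins of the ER were mixed. DNAJB11, which delivers secreted proteins to the ER HSP70, had 463 and 552 in LF/LCL against 619.7, 675 and 633 in SF/SCL, with every SF/SCL sample higher (log2 fold change -0.34 ± 0.13, limma adjusted p = 0.412; -0.22 without LF/LCL replicate 1). DNAJB9 had 1473 and 1628 in LF/LCL against 1836, 1528 and 2212 in SF/SCL with overlap (-0.25 ± 0.17). DNAJC3, which restrains the ER stress kinase PERK, was lowest in SF/SCL replicate 3 (3258 and 3362 in LF/LCL against 3273, 2883 and 2087 in SF/SCL; 0.29 ± 0.20). The ER HSP70 itself was listed under the older symbol GRP78, which the naming rule did not include. GRP78 had 6508 and 7731 in LF/LCL against 8377, 8790.5 and 11779 in SF/SCL, all SF/SCL samples higher (log2 fold change -0.43 ± 0.18, limma adjusted p = 0.445). ERP70, a disulfide isomerase also outside the rule, had a log2 fold change of 0.03 ± 0.12.

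**Figure D4:**
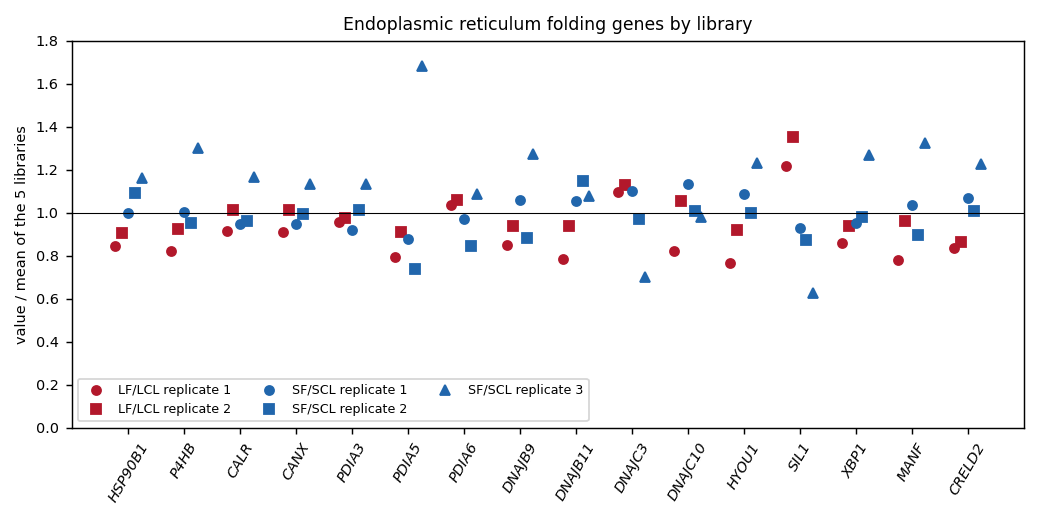
Normalized reads of 16 endoplasmic reticulum folding genes (11 chaperone genes and 5 picked, with values known, from the 32 further ER genes) in each library, divided by the mean of the gene over the 5 libraries (vertical axis; the line is at 1; LF/LCL red, SF/SCL blue). The triangles of SF/SCL replicate 3 are the highest point in 12 of the 16 genes. The red circles of LF/LCL replicate 1 are the lowest in 11, while SIL1 and DNAJC3 have their lowest point in SF/SCL replicate 3. Over all 32 further ER genes SF/SCL replicate 3 was the highest in 15 and LF/LCL replicate 1 the lowest in 6. The same counts were not made over all genes tested.

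Heat shock factors, a transcription factor family that includes the regulators of HSPA1A and HSPH1, had no limma p under 0.05 among their 4 genes. HSF1, the main stress sensor, had 1340.5 and 1351 in LF/LCL against 1348, 1546 and 1423 in SF/SCL (log2 fold change -0.09 ± 0.10, limma adjusted p = 0.782; 95% confidence interval -0.35 to 0.16). HSF2 had 415 and 539 in LF/LCL against 418, 396 and 419 in SF/SCL, with only LF/LCL replicate 2 high. HSF4 overlapped widely between groups, and HSF5 had 28 reads over the 5 libraries, too few to show a difference. HSF activity depends on protein state, which was not measured.

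The 4 remaining members carried too few reads to be tested. HSPB3 and DNAJB3 had 0 reads of 78245436 over the 5 libraries, which by counting error alone allows a level of up to 0.0383 CPM for each. HSPB9 had 3 reads in all, and DNAJB8 had 3 reads, each of them from LF/LCL replicate 2. Of the 91 tested, 8 had under 300 reads over the 5 libraries, and their fold changes are the least precise.

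Other folding genes outside the families were read from lists of their known partners. Of 21 other cochaperones, 4 had a limma p under 0.05 (19%, against 11.5% of all genes), none with an adjusted p under 0.05. FKBP4, the HSP90 partner that promotes steroid receptor activity, had 6861 and 5791 in LF/LCL against 7847, 10487 and 9602 in SF/SCL (log2 fold change -0.55 ± 0.16, limma adjusted p = 0.323). FKBP5, the HSP90 partner that dampens glucocorticoid and progesterone receptors and is itself induced by them, had 11006 and 13682 in LF/LCL against 8188, 7537 and 3428 in SF/SCL (1.04 ± 0.39, limma adjusted p = 0.414; 0.64 without SF/SCL replicate 3). The pair thus lay in opposite directions, each without overlap between the groups. CHORDC1, an HSP90 partner, was lower in LF/LCL (1444 and 1572 against 1843, 1785 and 2053; -0.33 ± 0.11, limma adjusted p = 0.362), and so was PPID (-0.26 ± 0.10, limma adjusted p = 0.43).

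Among 32 further ER folding and unfolded protein response genes, 5 had a limma p under 0.05 (15.6%, close to the 11.5% of all genes) and none an adjusted p under 0.05. SIL1, the exchange factor of the ER HSP70, had 1658 and 1846 in LF/LCL against 1268, 1188 and 853 in SF/SCL, higher in LF/LCL (0.69 ± 0.19, limma adjusted p = 0.308). HYOU1, the ER HSP110 that has the same task, had 1129 and 1351 in LF/LCL against 1599, 1468 and 1809 in SF/SCL, lower in LF/LCL (-0.39 ± 0.14, limma adjusted p = 0.378). FKBP2 was lower (-0.53 ± 0.16) and FKBP9 higher (0.38 ± 0.13) in LF/LCL, both peptidyl-prolyl isomerases of the ER, and CRELD2 was lower (-0.37 ± 0.13). The 6 prefoldin genes, which pass actin and tubulin to CCT, had 7 entries, since PFDN4 was listed more than once. No entry had a limma p under 0.05.

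Immediate early genes, which respond within minutes to handling of tissue, were listed because HSPA1A can do so too. Of 16 tested, 4 had a limma p under 0.05 (25%, against 11.5% of all genes), 2 in each direction, and none a limma adjusted p under 0.05. MYC had 511 and 436 against 733, 999 and 1510.0 (-1.13 ± 0.30, limma adjusted p = 0.306; DESeq2 adjusted p = 0.0181) and was the 1 gene of the list called by DESeq2. KLF6 had 1236 and 1468 against 2037, 1572 and 2219 (-0.51 ± 0.17, limma adjusted p = 0.369), and its 5 libraries stood in the same order as those of HSPA1A. That order was noticed after values were seen and is not particular to immediate early genes. HSPA8, HSPH1, CHORDC1 and HYOU1 had it too, and MYC did not. FOS, with 575 and 107 against 59.3, 431 and 158, had another order, and IER3 was higher in LF/LCL (0.68 ± 0.23). What handling contributed to the HSP70 values was not tested.

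Taken as a share of each library, the 95 genes made up 1.51% and 1.60% of counted reads in LF/LCL against 1.78%, 1.77% and 1.95% in SF/SCL. Without HSPA1A the shares were 1.43% and 1.52% against 1.62%, 1.63% and 1.76%, and without the whole HSP70 and HSP110 family 1.16% and 1.22% against 1.27%, 1.29% and 1.37%. The SF/SCL libraries were higher in each case. In these shares a gene weighs by its reads, so they do not stand for the members one by one.

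**Figure D5:**
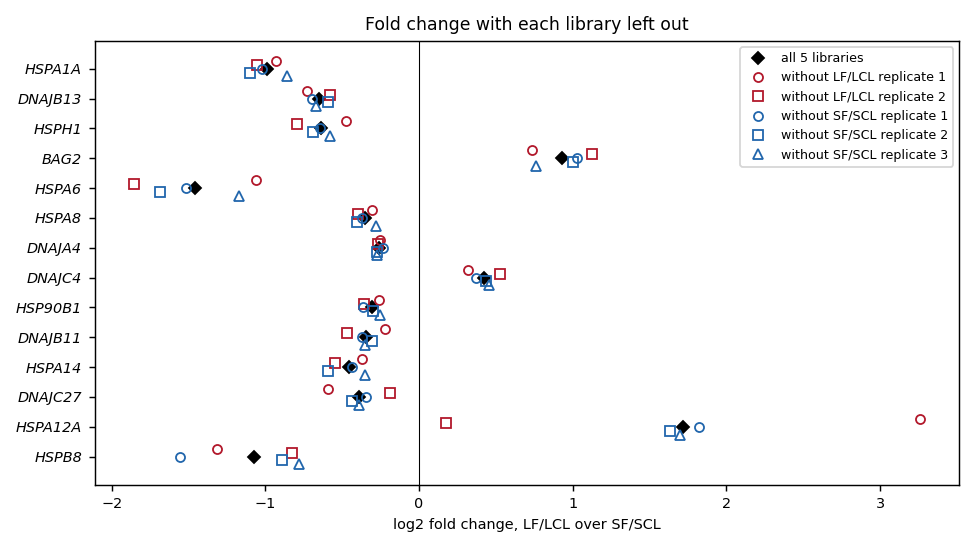
Log2 fold change (LF/LCL over SF/SCL, horizontal axis) of the 12 genes with an unadjusted limma p under 0.05 and of HSPA12A and HSPB8, with all 5 libraries (black) and with each library left out in turn (open symbols). Each of the 12 keeps its side of 0, whereas HSPA12A ranges from 0.18 to 3.26 according to which LF/LCL library is kept.

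BAG2, DNAJB13, HSPA1A and HSPH1 had an unadjusted p under 0.05 in all 15 settings tried, which include edgeR, DESeq2, other scalings and each library left out. HSPA6 had it in 14, all but the fit without LF/LCL replicate 1, and HSPA8 in 11. With 1 library left out, HSPA8, HSPA14, HSP90B1, DNAJA4, DNAJB11, DNAJC27 and DNAJC4 had it in 1 or 2 of the 5 fits. In all, 26 members had it in at least 1 setting.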

How the data were processed

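RNA of 5 ampulla libraries, each from a different cow, was sequenced as polyA TruSeq libraries in read pairs. Per the labels, the authors used CASAVA 1.8.2, TopHat2 2.0.8, Bowtie2 2.1.0, SAMtools 0.1.18, HTSeq 0.5.4p2 and DESeq 1.12.1, aligned to a masked UMD cattle assembly, and kept uniquely mapped, unambiguous reads. The deposited unit is a normalized signal, for which the authors divided each read count by the DESeq size factor of the library. Whether counting used strand is not given in the sources used here. Dividing by the step of each library gave whole reads for 100% of values (tolerance 0.001).

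The main test was limma 3.58.1 in R 4.3.3 (lmFit, eBayes with trend and robust) on log2(value + 1), LF/LCL over SF/SCL, for the 15815 genes with a mean over 5. P-values were two-sided, and Benjamini-Hochberg adjustment ran over the full set of tested genes (threshold 0.05). The added 1 shrinks fold changes of low genes. Values that vary widely within a group can act the other way, as for HSPB7 (2.71 by limma, 1.82 by edgeR and DESeq2). The edgeR 4.0.16 quasi-likelihood test and DESeq2 1.42.0 were run on recovered reads as alternatives, with other scalings, pseudocounts, filters and each library left out. P-values measure the spread between these cows.

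Named genes were a stress-inducible and an ER set, every member with a limma p or a count-test adjusted p under 0.05, the extremes of each role group with a mean of at least 50, untested members, and the 3 genes with the smallest p of a list. DNAJC6, DNAJB9, PDIA5, DNAJC3, GRP78, ERP70, RSPH1, FOS, OVGP1 and other members outside this rule were named after their values were seen, as were the ratios. The members and lists were chosen with earlier results of these data known. Of the marker lists, those not described above had these medians of the log2 fold change: secretory epithelial -0.29, stromal fibroblast 0.84, endothelial 0.27, immune 0.56, proliferation 0.84 and red blood cell 1.97. The red blood cell median rests on 2 HBA entries whose values varied widely within groups that overlapped. The entry with fewer reads had 224 and 24.2 in LF/LCL against 12.5, 124 and 7.51 in SF/SCL. Gene order came from RefSeq, which uses another assembly, and 90 of the 95 members were found there by symbol. Sequences of these genes were not analysed here.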

Additional observations from a re-analysis of the deposited data

How the results depend on the processing

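The comparison was unpaired, since each library came from a different cow, treated as either LF/LCL or SF/SCL.

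The count of chaperone genes with an unadjusted limma p under 0.05 (12, of which 10 higher in SF/SCL) was 7, of which 4 higher in SF/SCL, when eBayes was run without trend and robust, and 7 to 11, with 5 to 10 higher in SF/SCL, when 1 library was left out. The fewest, 7 and 5, came without LF/LCL replicate 1, and without SF/SCL replicate 1 or 3 the SF/SCL count was 6. Against the share of all genes, the members' share (13.2% against 11.5%) fell below it without trend and robust (7.69% against 10.5%), without LF/LCL replicate 1 (7.69% against 7.8%) and without SF/SCL replicate 1 (8.79% against 10.1%). No chaperone gene had an adjusted p under 0.05 in any limma or edgeR fit, against 6 by DESeq2, whose smallest adjusted p was 3.13e-05 (0.183 by limma, 0.166 to 0.351 with 1 library left out). Over all genes DESeq2 called 457 and limma and edgeR 0, although 1819 had an unadjusted limma p under 0.05. The number of genes with no overlap (33) was 38 to 58 with 1 library left out, since fewer samples overlap less often, and 54 and 58 without LF/LCL replicate 1 and 2. Of the other folding genes, 9 had an unadjusted p under 0.05, 4 without trend and robust, and 3 to 9 with 1 library left out (3 without either LF/LCL library, 4 without SF/SCL replicate 1 or 3); the alternatives for these genes were chosen after seeing the data.

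The HSP70 and HSP110 median was -0.35 with the filter that dropped HSPA12A. With 1 library left out, medians ranged from -0.19 to -0.0213 (HSP90), -0.26 to 0.14 (small heat shock proteins), -0.16 to -0.0301 (class A J proteins), -0.31 to -0.16 (class B), -0.0691 to 0.0159 (class C), -0.11 to 0.0748 (CCT), -0.0482 to 0.18 (heat shock factors) and -0.49 to 0.0627 (STIP1). With libraries scaled to their totals, where the median of all genes was -0.03, HSP90AB1 (-0.0174) and DNAJA3 (-0.00105) changed sign. Leaving out 1 library turned the sign of HSP90AB1 (-0.0324 to 0.0807), HSPB1 (-0.0677 to 0.24), DNAJA1 (-0.45 to 0.0934), CALR (-0.16 to 0.0137), DNAJA3 (-0.0458 to 0.11), BAG5 (-0.12 to 0.0393) and STIP1 (-0.49 to 0.0627). The cause was not tested. With 1 LF/LCL library, that library is assumed to vary like the others.

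The 2 LF/LCL libraries limit every comparison, and the sequence motifs planned for the promoters were not run.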
